A study of Danio rerio with 8 samples.

Results

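The genes of glycolysis and glucose transport described here are a list of 42 zebrafish genes for glucose carriers, the enzymes from hexokinase to lactate dehydrogenase, the entry enzyme of pyruvate oxidation, the muscle enzymes of glycogen use, and a lactate carrier. Of these, 41 were found among the 32520 genes of the counts table, and 37 were counted deeply enough to be tested. The listed pgk1 was not found under that symbol in the table of gene names. The only phosphoglycerate kinase named there, PGK2, lies on the chromosome where RefSeq places pgk1. It is described in place of pgk1 without being counted as a member, and whether it is pgk1 was not settled. RNA came from ventricles of adult zebrafish whose mothers were uninjured. In the group called uninjured, 4 libraries came from offspring of uninjured fathers (Pu-Fu). In the group called injured, 4 libraries came from offspring of fathers whose heart had been injured by freezing and that were mated 7 days after the injury (Pi-Fu); the offspring themselves were not injured. The comparison asks whether the heart of unharmed offspring differs with the injury of the father.

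Each library pooled the ventricles of 4 sibling fish, with the atrium and the bulbus arteriosus taken off and the ventricle opened to release red blood cells. Neither strain, age beyond adult, nor sex is given in the labels used here, nor do they say whether each pool had its own father; p-values here rest on pool-to-pool spread alone. Totals ran from 12450251 to 14736121 counts in the uninjured group and from 8441014 to 16290169 in the injured group. Levels are CPM (counts per 1000000 of the scaled library total), and levels of different genes are compared only as CPM per kilobase of exon. Values of single libraries are given in the order of the labels' numbers, which are 1, 3, 4 and 5 for the uninjured group and 1, 2, 4 and 7 for the injured group.

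Glycolysis splits glucose into pyruvate in the cytosol and yields ATP without oxygen. Pyruvate then either becomes lactate, which can leave the cell, or enters mitochondria, where pyruvate dehydrogenase turns it into acetyl-CoA. Heart muscle lives mainly on fatty acids and lactate but keeps the glycolytic enzymes at high levels, and in injured zebrafish hearts the dividing muscle cells at the wound border are known to turn towards glycolysis. Many of these enzymes exist in zebrafish as paired a and b genes, left by a genome duplication in the ancestors of teleosts, the bony fishes that include zebrafish.

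Nearly every step was dominated by a single gene, and no member passed the test between the groups. With edgeR's quasi-likelihood test, 0 of 37 members had an adjusted p below 0.05, as did 0% of the 13604 genes tested; the smallest adjusted p of a member was 0.56. DESeq2 and limma voom also called 0 members. At an unadjusted p below 0.05 there were 2 members, slc2a1b and hk1, both with the lower mean in the injured group, against 7.14% of all genes in either direction and 3.47% with the lower mean. The log2 fold, always injured over uninjured, was below 0 for 32 of the 37 (86.5%), against 51.4% of all genes tested. The median was -0.13 over the members and -0.01 over all genes, and 24 of the 37 members lay within 0.25 of 0. Log2 folds were below -0.5 in 6 members and above 0.5 in 1. These cut-offs were not counted over all genes. Scaling moves all genes together: 5 members had a positive log2 fold with TMM factors, 11 with upper-quartile factors and 14 with library sizes alone, while the median of all genes went from -0.01 to 0.038 and 0.067. Read against the median of all genes in the same fit, 30, 30 and 32 of the 37 members lay below it, and the member median was lower than that of all genes by 0.11, 0.11 and 0.13 (log2). The sign count moved with single libraries: 14 members were positive without injured library 7, 10 without uninjured library 5, and 8 each without uninjured library 3, injured library 1 or injured library 2. Without injured library 7, 23 of 37 lay below the median of all genes. In bulk tissue, fewer cells of a type and less RNA per cell cannot be told apart.

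**Figure D1:**
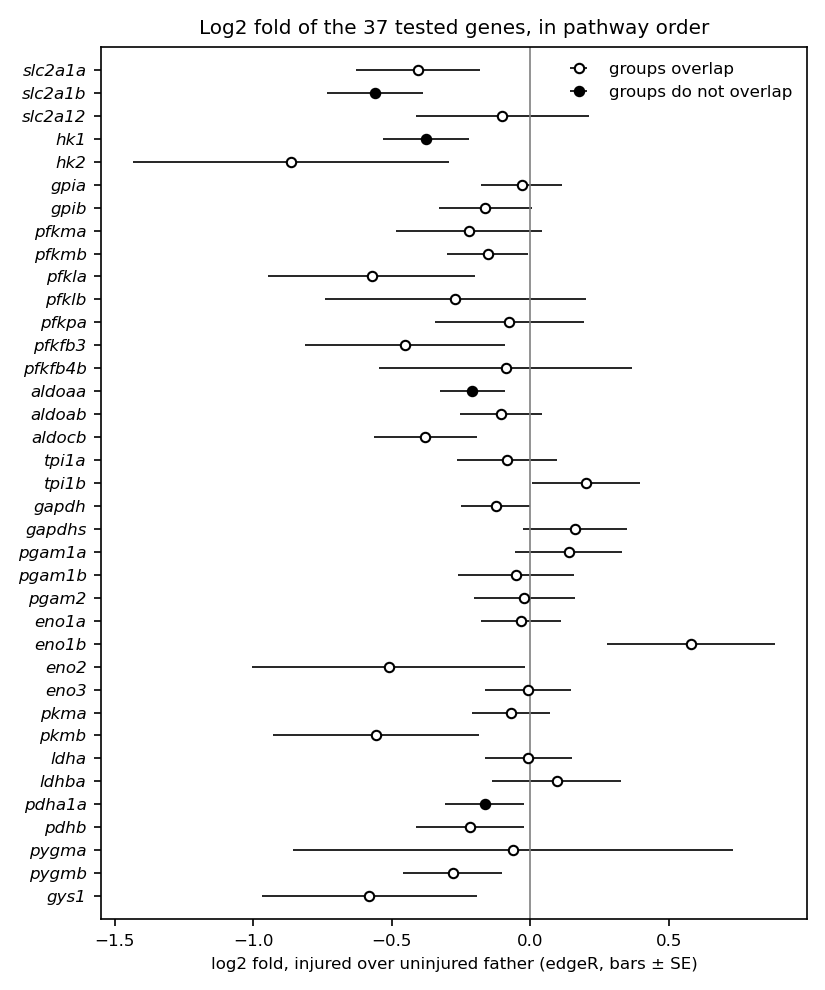
Log2 fold of the injured over the uninjured group for each tested member, in pathway order; points are edgeR estimates and bars are 1 SE. Most points lie just left of 0, slc2a1b and hk1 lie furthest from 0 relative to their error, and eno1b is the member furthest to the right at 0.58.

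Members together took 3.84% ± 0.260 of all counts in the uninjured group and 3.72% ± 0.166 in the injured group (SD, n = 4 each), with single libraries between 3.49% and 4.16%. The share therefore overlapped between the groups. Of the 16 steps with more than 1 detected gene, 15 had a gene that held over 50% of the step's CPM per kilobase, averaged over the 8 libraries. By counts without length the same gene led in 16 of 16 steps.

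**Figure D2:**
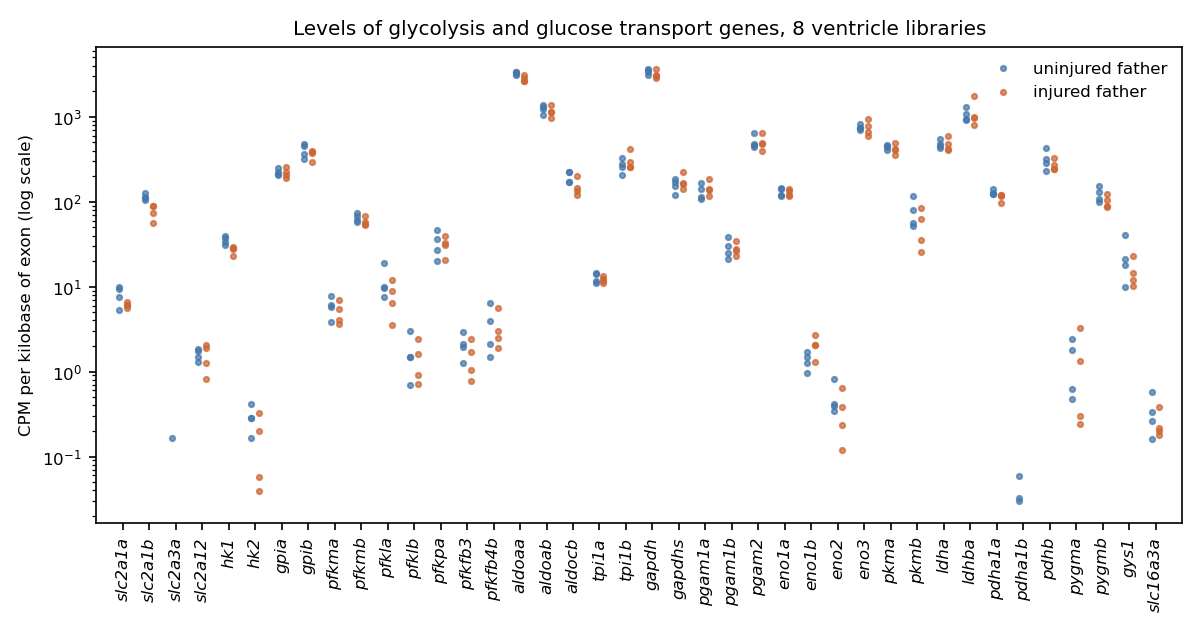
Level of each gene in CPM per kilobase of exon on a log axis, by pathway step, with 1 point per library and the groups in different colours. Glyceraldehyde-3-phosphate dehydrogenase and aldolase stand at the top, with gapdh at 3297 and aldoaa at 3026 CPM per kilobase, and the points of both groups mostly overlie each other. This measure depends on exon length, which is 4973 bases for gapdh and 1871 for aldoaa. In CPM without length, gapdh averaged 16398 and aldoaa 5661. Libraries at 0 counts cannot be drawn on a log axis, which leaves out aldoca and most libraries of slc2a3a and pdha1b.

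Glucose enters cells through carriers of the SLC2A (GLUT) family, and the ventricle used mainly slc2a1b, 1 of the copies of GLUT1, the carrier of basal glucose uptake. It is ENSDARG00000007412 (chromosome 6, 48068695 to 48094342, GRCz11) and held 87.0% ± 3.69 of the CPM per kilobase of 11 carrier genes (SD over 8 libraries), while its partner slc2a1a held 6.55% ± 0.97. Counts of slc2a1b were 215, 200.1, 239.8 and 208 CPM in the uninjured group and 142, 168, 107 and 168 CPM in the injured group. All injured libraries lay below all uninjured ones, and injured library 4 was the lowest. The means were 216 ± 17.2 and 146 ± 28.7 CPM (SD, n = 4 each), 32.2% lower in the fit. The fitted log2 fold of slc2a1b was -0.56 (SE 0.17), with an edgeR adjusted p of 0.56. Injured library 4 also had the largest haemoglobin share of counts, and a fit that also held this share as a covariate gave slc2a1b a log2 fold of -0.30. The share was 0.0900% to 0.171% in the uninjured group and 0.155% to 0.360% in the injured group. Such fits can therefore separate the share from the group only in part. Without injured library 4 the log2 fold of slc2a1b was -0.44.

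The other listed carriers were scarce. Levels of slc2a1a were 16.8, 9.51, 18.0 and 13.5 CPM against 11.01, 11.8, 9.92 and 10.9 CPM, overlapping through uninjured library 3, with a log2 fold of -0.41 (SE 0.22, edgeR adjusted p = 0.73). The covariate fit gave slc2a1a -0.20. The carrier slc2a12 (GLUT12) lay between 2.04 and 5.15 CPM, with a log2 fold of -0.10. For slc2a3a, a copy of the GLUT3 gene, 9 counts were found in uninjured library 1 and 0 in the other 7 libraries. The 4 injured libraries together allow a slc2a3a level of up to 0.0604 CPM at 0 counts. Such limits cover counting error only, since amplified reads without molecular identifiers are not independent molecules. Summed over the carriers, uptake genes reached 127 ± 11.4 CPM per kilobase in the uninjured group and 90.1 ± 14.0 in the injured group, and the groups did not overlap, which mostly repeats slc2a1b.

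Hexokinase traps glucose in the cell by phosphorylating it, and hk1 (ENSDARG00000039452, chromosome 13, 22972888 to 23007813) held 98.2% ± 0.415 of the step. Its levels were 161, 136, 127 and 149.9 CPM against 113, 119, 93.0 and 116 CPM. The groups did not overlap, with injured library 2 at the top of its group just under uninjured library 4, and injured library 4 lowest. Means of hk1 were 144 ± 14.8 and 110.3 ± 11.8 CPM (SD, n = 4 each), and the log2 fold was -0.38 (SE 0.16, edgeR adjusted p = 0.66). The covariate fit gave -0.22. The muscle hexokinase of mammals, hk2, was barely present in zebrafish ventricle at 0.151 to 1.603 CPM. Its log2 fold of -0.86 had an SE of 0.57 and changed sign to 0.15 with the haemoglobin covariate. The fold of hk2 was -1.43 without injured library 1 and -0.54 without injured library 4. The whole step gave 36.0 ± 3.72 and 27.6 ± 2.89 CPM per kilobase, without overlap, which mostly repeats hk1.

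Among the 37 members, slc2a1b, hk1, aldoaa and pdha1a had groups that did not overlap, each with the injured group below. Of all 13604 genes tested, 1.58% had the injured group below without overlap and 2.58% had it above.

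**Figure D3:**
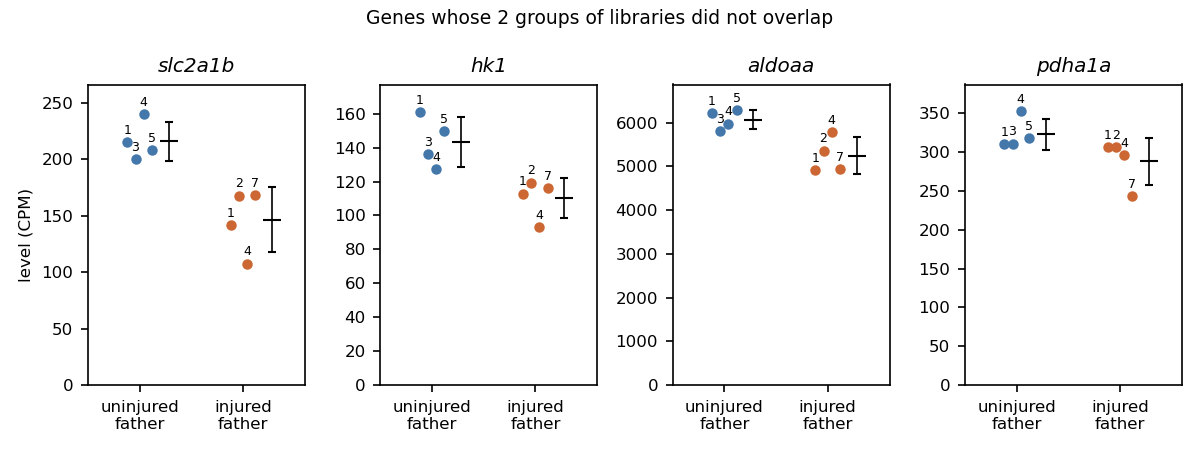
CPM of the 4 members whose groups did not overlap, with 1 point per library and the mean ± SD of each group. The gap between the groups is widest for slc2a1b and narrow for hk1, aldoaa and pdha1a.

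Glucose-6-phosphate isomerase, which turns glucose phosphate into fructose phosphate, came mainly from gpib, with 63.1% ± 3.07 of the step and gpia making up the rest. Levels of gpib were 856, 613, 693 and 921 CPM against 558, 735, 745 and 714 CPM. The ranges overlapped, and injured library 1 stood alone at the bottom of its group. The log2 fold was -0.16 (SE 0.17) for gpib, with -0.074 without injured library 1, -0.069 without uninjured library 5 and -0.26 without uninjured library 3, and -0.03 (SE 0.15) for gpia.

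Phosphofructokinase commits sugar to glycolysis, and by CPM per kilobase this was the step shared most evenly between genes. The muscle-type pfkmb led with 47.3% ± 5.99 of the CPM per kilobase, followed by the platelet-type pfkpa with 23.9% ± 5.69. The copy pfkpb, which was not listed, held 16.2% ± 2.28, and the liver-type pfkla held 7.24% ± 3.40. Levels of pfkmb were 389.6, 331, 349 and 419.8 CPM against 331, 314, 386 and 306 CPM. The groups overlapped, and the log2 fold was -0.16 (SE 0.15). It was -0.24 without injured library 4, -0.095 without uninjured library 5 and -0.25 with the haemoglobin covariate. Levels of pfkla were 33.8, 33.9, 65.4 and 26.0 CPM against 41.9, 21.9, 12.2 and 30.9 CPM. Uninjured library 4 was the highest and injured library 4 the lowest, and the rest overlapped. Its log2 fold of -0.57 (SE 0.38) rested on those libraries: it was -0.23 without uninjured library 4, -0.33 without injured library 4, -0.87 without injured library 1, and -0.04 with the haemoglobin covariate. The log2 folds of pfkma, pfklb and pfkpa were -0.22 (SE 0.26), -0.27 (SE 0.47) and -0.08 (SE 0.27). Without uninjured library 4 that of pfklb was 0.18, and without uninjured library 3 that of pfkpa was 0.16.

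The bifunctional PFKFB enzymes set the level of fructose-2,6-bisphosphate, which activates phosphofructokinase. Here the leading gene was pfkfb4a, which was not listed, with 69.7% ± 6.18 of the step, while the listed pfkfb4b held 10.3% ± 3.505. Levels of pfkfb4a were 47.2, 53.2, 70.3 and 29.9 CPM against 47.5, 62.8, 63.6 and 26.7 CPM, overlapping throughout. Levels ran from 4.52 to 19.6 CPM for pfkfb4b and from 2.96 to 11.3 CPM for pfkfb3. Their log2 folds were -0.09 (SE 0.46) and -0.45 (SE 0.36). That of pfkfb4b was 0.38 without uninjured library 3 and -0.95 with the haemoglobin covariate. That of pfkfb3 was -0.23 without uninjured library 5 and -0.93 with the haemoglobin covariate.

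**Figure D4:**
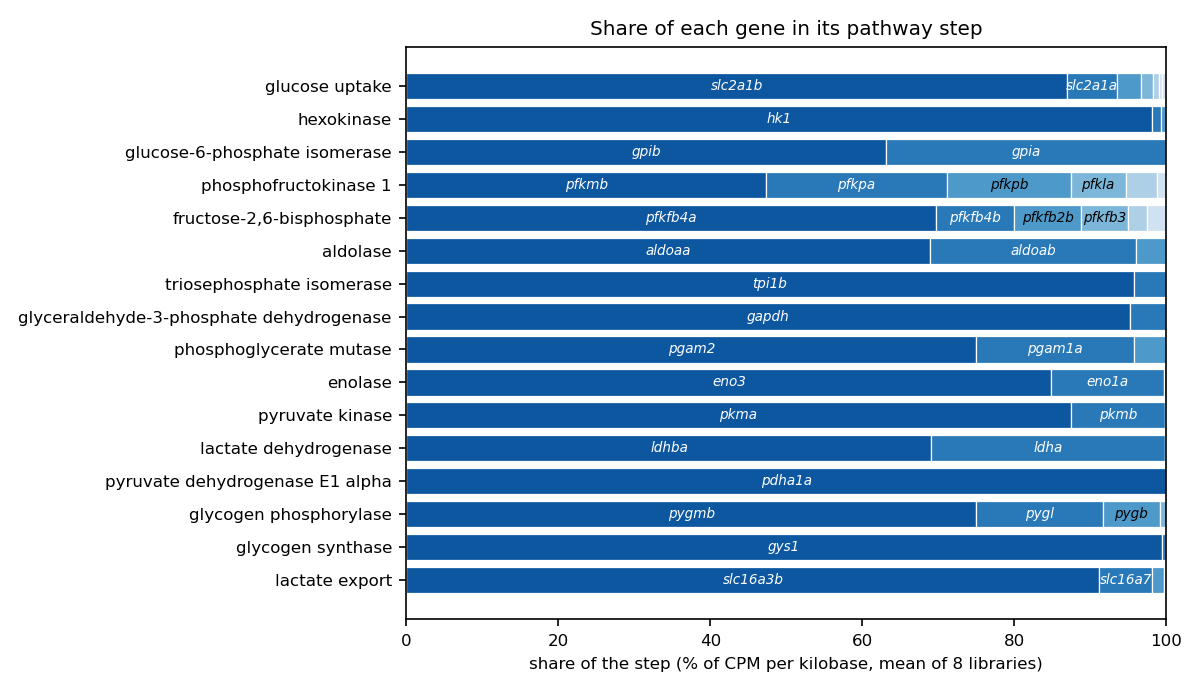
Share of each gene in the CPM per kilobase of its pathway step, averaged over the 8 libraries, as stacked bars from 0 to 100%. By this measure, which depends on exon length, a single gene fills most of the bar in nearly every step. Phosphofructokinase, where pfkmb holds 47.3% ± 5.99, is the exception.

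Aldolase, which splits the sugar bisphosphate, was among the most abundant of these enzymes. The muscle-type aldoaa (ENSDARG00000011665, chromosome 3, 39566999 to 39577052) held 68.9% ± 2.64 of the step and its partner aldoab 27.2% ± 2.98. Levels of aldoaa were 6223, 5806, 5980.3 and 6280.5 CPM against 4917, 5359, 5789 and 4935 CPM. Injured library 4 came closest to the uninjured group, just below uninjured library 3. Means were 6072 ± 220.1 and 5250.0 ± 414 CPM (SD, n = 4 each), and the log2 fold was -0.21 (SE 0.12, edgeR adjusted p = 0.73). The total of the step was 4676 ± 148 CPM per kilobase in the uninjured group and 4102 ± 232 in the injured group. The totals did not overlap either, but most of each total was aldoaa itself.

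The brain-type aldocb (ENSDARG00000019702, chromosome 21, 39608637 to 39639954) held only 3.94% ± 0.848 of the step. Its levels were 642, 487, 489 and 641 CPM against 421, 347, 391 and 578 CPM. Injured library 7 lay within the uninjured range and the other injured libraries lay below it. For aldocb the log2 fold was -0.38 (SE 0.19, edgeR adjusted p = 0.71), and -0.21 with the haemoglobin covariate. For aldoca, 0 counts were found in all 8 libraries, which allows a level of up to 0.0288 CPM. For aldoab the log2 fold was -0.11 (SE 0.15).

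Triosephosphate isomerase makes both products of aldolase usable, and tpi1b held 95.7% ± 0.636 of it. Levels of tpi1b were 409, 502, 543 and 642 CPM against 504, 508, 817 and 582 CPM, with injured library 4 the highest and uninjured library 1 the lowest. Its log2 fold was 0.20 (SE 0.19, edgeR adjusted p = 0.83). The fold was 0.02 without injured library 4, and -0.091 with the haemoglobin covariate. The scarcer tpi1a had a log2 fold of -0.08.

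The later enzymes of the pathway yield ATP and NADH. Glyceraldehyde-3-phosphate dehydrogenase, the NADH-making step, was almost wholly gapdh, with 95.2% ± 0.697 of the step. Levels of gapdh were 18210.1, 16804, 15636 and 17794 CPM against 14192, 15364, 18355 and 14831 CPM. Injured library 4 was the highest of all 8 and the other injured libraries lay below the uninjured ones. It took 1.67% ± 0.156 of counts in the uninjured group and 1.604% ± 0.0745 in the injured group. Its log2 fold was -0.13 (SE 0.12), with -0.22 without injured library 4, -0.080 without injured library 1 and -0.26 with the haemoglobin covariate, while that of gapdhs, a second gene named after a sperm enzyme of mammals, was 0.16 (SE 0.19).

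Phosphoglycerate kinase makes the first ATP of the pathway. The only such gene in the name table carries the symbol PGK2 (ENSDARG00000054191, chromosome 21, 37445871 to 37463555) and lies on the chromosome where RefSeq places pgk1. Its levels were 966, 988, 900.0 and 1111 CPM against 1013, 985, 1224 and 866 CPM. The groups overlapped throughout, with a log2 fold of 0.04 (SE 0.15).

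Phosphoglycerate mutase and enolase, which prepare the last energy-rich intermediate, were both led by their muscle forms. The mutase pgam2 held 75.0% ± 2.75 of its step, with pgam1a at 20.7% ± 2.09, and eno3 held 84.9% ± 1.48 of enolase, with eno1a at 14.9% ± 1.5. Levels of pgam2 were 502, 486, 456 and 666 CPM against 504, 497, 669 and 408 CPM. Levels of eno3 were 3347, 3037, 2882 and 3074 CPM against 3230.3, 2704, 3855 and 2470.0 CPM. In both genes the injured group held the highest value, in library 4, and the lowest, in library 7. The log2 folds were -0.02 (SE 0.18) for pgam2, -0.01 (SE 0.15) for eno3, 0.14 for pgam1a, -0.05 for pgam1b and -0.03 for eno1a. These folds were within their errors of 0.

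Levels of eno1b, a minor copy of the widely expressed enolase, were 3.13, 2.72, 1.80 and 2.34 CPM against 5.01, 3.84, 3.79 and 2.39 CPM. Injured library 7 lay inside the uninjured range and the other 3 injured libraries lay above it. Its log2 fold of 0.58 (SE 0.30, edgeR adjusted p = 0.72) was the largest positive value among the members, at a level so low that eno1b made up 0.152% of enolase in the uninjured group and 0.233% in the injured group. The nerve enolase eno2 lay between 0.329 and 2.26 CPM, with a log2 fold of -0.51 (SE 0.49) that was -0.16 without uninjured library 1.

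Pyruvate kinase makes the last ATP, and pkma held 87.4% ± 4.18 of the step. Levels of pkma were 1184, 1269.9, 1239 and 1102 CPM against 1350.0, 1106, 1149.9 and 957 CPM, with the highest and the lowest value both in the injured group. Its partner pkmb, whose values are given because they varied widely, was at 154, 343, 240.5 and 168 CPM against 250.1, 104, 185 and 76.1 CPM. In pkmb the groups overlapped, with uninjured library 3 highest and injured library 7 lowest. The log2 folds were -0.07 (SE 0.14) for pkma and -0.56 (SE 0.37, edgeR adjusted p = 0.76) for pkmb, with -0.28 without uninjured library 3, -0.33 without injured library 7 and -0.90 without injured library 1.

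Lactate dehydrogenase converts pyruvate and lactate into each other. The heart-type ldhba, whose mammalian counterpart favours the use of lactate, held 69.1% ± 3.70 of the step, and the muscle-type ldha 30.7% ± 3.67. Levels of ldhba were 1880.3, 2597, 1821 and 2151 CPM against 1919.6, 1987, 3532 and 1584 CPM. Injured library 4 stood far above the other 7 libraries. The log2 fold of 0.09 (SE 0.23) was -0.21 without that library and -0.47 with the haemoglobin covariate. For ldha the log2 fold was -0.01 (SE 0.16).

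Lactate leaves cells through monocarboxylate carriers. The listed slc16a3a had 3 to 12 counts per library and was not tested, and its partner slc16a3b, which was not listed, held 91.2% ± 1.99 of the carriers examined. Levels of slc16a3b were 573, 496, 432 and 661 CPM against 471, 375, 401 and 418 CPM. Injured library 1 reached into the uninjured range and the other injured libraries lay below it. The means were 540.2 ± 98.9 and 416 ± 40.6 CPM (SD, n = 4 each), and the log2 fold was -0.38 (SE 0.16, edgeR adjusted p = 0.68).

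Pyruvate dehydrogenase links glycolysis to mitochondria, and its first enzyme is built from alpha and beta chains. The alpha chain came from pdha1a (ENSDARG00000012387, chromosome 5, 24031314 to 24044877), while pdha1b had 4 counts in all, each in the uninjured group. Levels of pdha1a were 310.4, 311, 353 and 318 CPM against 306, 306, 296 and 243 CPM. The groups were separated by a narrow gap, and injured library 7 lay well below the rest. The means were 323 ± 20.2 and 288 ± 30.1 CPM (SD, n = 4 each), and the log2 fold was -0.17 (SE 0.14, edgeR adjusted p = 0.81). Without injured library 7 the fold of pdha1a was -0.094. The beta chain gene pdhb gave 506, 462, 679 and 369.8 CPM against 526, 435, 389 and 383 CPM. Uninjured libraries 4 and 5 were its highest and lowest. Its log2 fold of -0.22 (SE 0.19) was -0.04 without uninjured library 4 and -0.34 without uninjured library 5.

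Glycogen is the sugar store of muscle, broken down by glycogen phosphorylase and built by glycogen synthase. Phosphorylase came mainly from the muscle form pygmb, with 75.0% ± 5.41 of the step, and synthase from gys1, with 99.4% ± 0.568. Levels of pygmb were 666, 553, 772 and 499 CPM against 621, 451, 438 and 538 CPM, and those of gys1 were 133, 113, 253 and 62.7 CPM against 145, 74.9, 63.9 and 92.0 CPM. In both genes uninjured library 4 was the highest and the remaining libraries overlapped. The log2 fold of pygmb, -0.28 (SE 0.18), was -0.16 without that library, and that of gys1, -0.58 (SE 0.39), was -0.14. With the haemoglobin covariate, pygmb was at -0.12 and gys1 at -0.26. The second muscle phosphorylase, pygma, ranged from 0.658 to 8.86 CPM, and its log2 fold was -0.06 (SE 0.79).

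Different members were highest in different libraries. Injured library 4 had the highest level of 10 of the 37 members. Of these, 8 were tpi1b, gapdh, gapdhs, pgam1a, pgam2, eno3, ldha and ldhba, from the lower part of the pathway. The others, slc2a12 and gpia, were from the upper part. Further members of the lower part, namely tpi1a, pgam1b, eno1a, eno1b, eno2, pkma and pkmb, were highest in other libraries. Injured library 4 was also highest for the cardiomyocyte markers myl7, cmlc1, tnnt2a and tnni1b, but not for tnnc1a, nppa, nppb or ckmt2a. How often this or any other library was highest or lowest over all genes was not counted. Without injured library 4 the log2 folds of gapdhs, pgam1a and the PGK2 gene were 0.0081, -0.011 and -0.059. The same library had the lowest levels of slc2a1b and hk1 at the top of the pathway. Uninjured library 4 was highest in 9, among them slc2a1a, slc2a1b, pdha1a, pdhb, pygmb and gys1, and uninjured library 5 was highest in 8. Injured libraries 2 and 7 were highest in 0 members, and injured library 7 was lowest in 11.

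**Figure D5:**
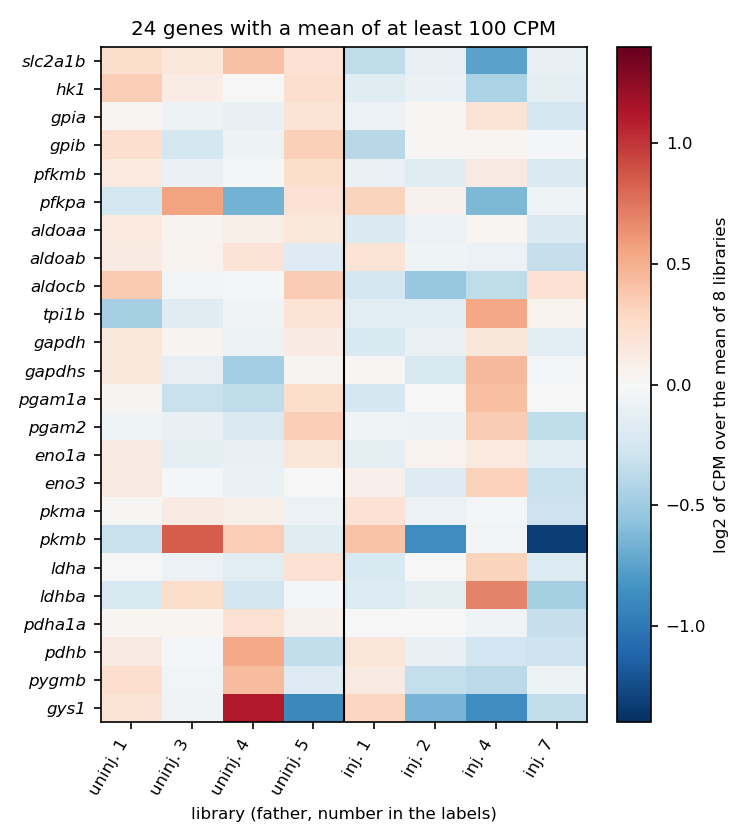
Log2 of each library's CPM over the mean of the 8 libraries for the members with a mean of at least 100 CPM, in pathway order, with colour from -1.4 to 1.4. Injured library 4 is low at slc2a1b and hk1 and high at ldhba, and uninjured library 4 is highest at gys1.

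Markers of other cells were read beside these values. Cardiomyocyte markers (8 of 10 matched) summed to 54386 to 64734 CPM in the uninjured group and 49114 to 69740.3 in the injured group, so the ranges overlapped. Their log2 folds were below 0 in 6 of 8, with a median of -0.098. For comparison with each marker list, 51.4% of all 13604 genes tested had log2 folds below 0 and 6614 had positive ones. Of 11 matched skeletal muscle markers, 6 averaged under 1 CPM, including myhz2 and pvalb1. The 11 summed to 2726 to 4356 CPM in the uninjured group and 1370.3 to 3893 CPM in the injured group. Nearly all of this sum came from the other matched markers, ckma, ckmb, acta1a, acta1b and actn3b. Log2 folds were below 0 in 4 of 5 tested skeletal muscle markers, with a median of -0.30. Red blood cell genes (8 of 10 matched) had a positive log2 fold in 7 of 8, with a median of 0.84. They summed to 423 to 785 CPM in the uninjured group and 611 to 1877 CPM in the injured group. Haemoglobin genes took 0.113% ± 0.0387 of counts in the uninjured group and 0.215% ± 0.0971 in the injured group (SD, n = 4 each). The highest share, 0.36%, was in injured library 4. Leukocyte markers (5 of 7 matched, with lyz at 0) had positive log2 folds in 4 of 4 tested, and summed to 151 to 214 CPM against 182 to 335 CPM. Of the atrial markers, nr2f1a was at 3.79, 3.44, 2.74 and 3.28 CPM against 6.89, 6.36, 5.83 and 4.08 CPM, all injured libraries above all uninjured ones (log2 fold 0.80, edgeR adjusted p = 0.56), while myh6 overlapped, with a log2 fold of -0.04. The summed ranges of endothelial, epicardial and fibroblast, bulbus and neuron markers overlapped between the groups. The part of leukocytes and of atrial tissue in the results was not tested. Beyond the fits with the haemoglobin share given above, the part of red blood cells in the results was not tested.

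Of the other genes around the pathway, 126 were listed and 86 matched and tested, and 0 had an adjusted p below 0.05 in edgeR. At an unadjusted edgeR p below 0.05 there were 11 of the 86, against 7.14% of all genes tested. Of the 86, 8 had such a p with the lower and 3 with the higher mean in the injured group. Over all genes these shares were 3.47% and 3.67%. Log2 folds were below 0 in 57 of 86 (66.3%, against 51.4% of all genes), with a median of -0.19. Of 9 tested paralogues of glycolytic steps, bpgm had the smallest p; the enzyme makes the bisphosphoglycerate that lowers the oxygen affinity of haemoglobin in mammalian red cells. Levels of bpgm were 318, 465, 766 and 479 CPM against 294, 306, 286 and 247 CPM. All injured libraries lay below all uninjured ones, and uninjured library 4 was the highest. For bpgm the log2 fold was -0.84 (SE 0.23, edgeR adjusted p = 0.46). Levels of ldhbb, the partner of ldhba, were 4.52, 3.36, 2.88 and 3.43 CPM against 4.66, 6.80, 6.44 and 4.89 CPM, all injured libraries above all uninjured ones. Its log2 fold was 0.68 (SE 0.25, edgeR adjusted p = 0.61).

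Among 25 tested genes of glycogen metabolism, 15 had log2 folds below 0 (60.0%, against 51.4% of all genes). An unadjusted edgeR p below 0.05 was found in 1 of the 25, against 7.14% of all genes. This was phkg1a, the catalytic chain of the kinase that activates glycogen phosphorylase. Levels of phkg1a were 6.92, 7.51, 7.77 and 9.28 CPM against 4.48, 5.37, 4.39 and 3.85 CPM, without overlap. Its log2 fold was -0.80 (SE 0.22, edgeR adjusted p = 0.46). Of 10 genes of the pyruvate dehydrogenase complex and its regulators, 8 had log2 folds below 0 (80.0%, against 51.4% of all genes). They include pdhx, the protein that anchors a part of the complex, at -0.67 (SE 0.31; -0.29 without uninjured library 4), and pdk4, a kinase that switches the complex off, at -0.41 (SE 0.19).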

How the data were processed

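The values deposited were raw, whole-number read counts for each gene, made by the authors, per the file headers, with featureCounts 2.0.3 on the Ensembl GRCz11 annotation, release 111, without using strand. Reads were aligned with STAR 2.7.10a, per the submitters' processing notes. Libraries came from 1 ng of amplified RNA read as single reads of 60 bases, per the labels' protocols. Reads mapping to several places were not counted, so paralogues with near-identical stretches are uncertain.

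The members and lists were chosen with earlier results of these data known. Symbols came from a name table covering 29201 of 32520 genes; 17 members matched by symbol and 24 by symbol and RefSeq chromosome. Groups were compared with edgeR 4.0.16 (R 4.3.3; TMM, filterByExpr with a minimum count of 10, robust quasi-likelihood F test, Benjamini-Hochberg adjustment over 13604 genes at 0.05), checked on simulated data. SE was derived from the test (log2 fold over the root of F). CPM uses TMM-scaled totals; shares are of CPM per kilobase of merged exons. Alternatives were other scalings and filters, DESeq2 1.42.0, limma 3.58.1 voom, haemoglobin share as covariate, each library left out, and a replicate block. Values per library are printed for the leading gene of each step, the 8 members of smallest p and those whose groups do not overlap, and for pkmb, chosen after its values were seen; of other pathway genes, up to 4 of smallest p per list could be named, and those printed were picked after their values were seen.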

Additional observations from a re-analysis of the deposited data

Results flagged for a closer look

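Of 134 groups of 4 libraries examined, 4 held a library whose distance from the others exceeded Dixon's 95% critical value for 4 samples; chance flags about 1 in 20. The isomerase gene gpib was lowest in injured library 1, at 558 CPM against 714 to 745 in the other 3. The nerve enolase eno2 was highest in uninjured library 1, at 2.26 CPM against 0.959 to 1.15. For pdha1a, injured library 7 had 243 CPM against 296 to 306. For the monocarboxylate carrier gene slc16a1b, injured library 4 had 2.5 CPM against 4.06 to 4.12.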

How the results depend on the processing

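Across 17 alternatives the number of members called stayed at 0. The number of genes called over the whole table was 63 with DESeq2 and 0 with every other alternative except the replicate block. Members with an unadjusted p below 0.05 numbered 1 with upper-quartile factors, 1 with library sizes alone, and 1 to 4 with a library left out. Members with a positive log2 fold numbered 11 with upper-quartile factors, 14 with library sizes alone, and 4 to 14 with a library left out; the median of all genes was 0.038 and 0.067 with those scalings, against -0.011 with TMM. The median log2 fold of the members, -0.13 with TMM, was nearer 0 in some alternatives and further from it in others. It was -0.076 with upper-quartile factors, -0.058 with library sizes alone and -0.037 with the replicate block. The haemoglobin covariate gave -0.20, limma voom -0.15, and DESeq2 and RLE factors -0.14 each. Without a low-count filter it was -0.20 over 40 members, and with a filter of 1 CPM in 4 libraries -0.12. With a library left out it ran from -0.21 to -0.094. Below the median of all genes lay 32 of 37 members with the haemoglobin covariate and 21 with the replicate block. Both groups have libraries numbered 1 and 4, whose deviations correlated at 0.115 and -0.281. With only 2 such values, whether the numbers pair the samples cannot be decided, and the labels name no pairing. With the replicate block, which uses only those 4 libraries and leaves 1 residual degree of freedom, 19 genes were called, 1 member had an unadjusted p below 0.05, 17 members were positive, and the log2 folds of pgam2, eno3 and pkma were 0.29, 0.19 and 0.047.

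Of 323 log2 folds of the 19 named members under the alternatives, 306 kept their direction and 17 did not; the cause was not tested. With the haemoglobin share in the model, tpi1b was -0.091 and ldhba -0.47. In that fit pgam2, eno3 and pkma kept their direction at -0.25, -0.24 and -0.11. Members outside the 19 also changed sign there. The fold turned negative for gapdhs at -0.074 and pgam1a at -0.046. It turned positive for hk2 at 0.15, pfklb at 0.013, pfkpa at 0.053 and pgam1b at 0.12. With upper-quartile factors, pgam2 was 0.030 and eno3 0.044. With library sizes alone, pgam2 was 0.046, eno3 0.054 and pkma 0.0067. With a library left out, the ranges were -0.17 to 0.11 for pgam2, -0.14 to 0.080 for eno3, -0.16 to 0.0030 for pkma and -0.21 to 0.23 for ldhba. The log2 fold of slc2a1b ran from -0.87 to -0.30, with an unadjusted p below 0.05 in 15 of 17 alternatives and adjusted p from 0.24 to 1.00. That of hk1 ran from -0.47 to -0.22, with an unadjusted p below 0.05 in 8 of 17. The widest SE among the members was 0.79, for pygma, followed by 0.57 for hk2.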

Other observations

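The glycerol phosphate shuttle carries the electrons of cytosolic NADH to mitochondria. Of 4 tested genes for its enzymes, 3 had positive log2 folds, against 6614 of all 13604 genes tested. At an unadjusted edgeR p below 0.05 there were 2 of the 4, both with the higher mean in the injured group. Over all genes, 3.67% had such a p with the higher mean. These genes were chosen for mention after their values were seen. Levels of gpd1l were 6.49, 6.79, 5.04 and 6.08 CPM in the uninjured group and 9.85, 11.8, 11.2 and 7.40 CPM in the injured group, all injured libraries above all uninjured ones. Its log2 fold was 0.72 (SE 0.22, edgeR adjusted p = 0.56). The log2 folds of gpd1b and gpd1c, both cytosolic glycerol-3-phosphate dehydrogenases, were 0.61 (SE 0.27) and 0.48 (SE 0.26). The mitochondrial gpd2 was at -0.38 (SE 0.24), with -0.57 without injured library 1 and -0.23 without injured library 4. With the haemoglobin covariate, gpd2 was at -0.078 and gpd1b at 0.35.

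Among 19 tested regulators of glucose use, 15 had log2 folds below 0 (78.9%, against 51.4% of all genes). An unadjusted edgeR p below 0.05 was found in 3 of the 19, against 7.14% of all genes, and 0 were called in edgeR. The insulin receptor substrates irs1 and irs2b, which relay the insulin signal, had log2 folds of -1.49 (SE 0.54, edgeR adjusted p = 0.61) and -1.81 (SE 0.72, edgeR adjusted p = 0.67). Levels of irs1 were 36.95, 94.8, 273 and 62.5 CPM against 38.6, 38.8, 52.6 and 35.8 CPM, and those of irs2b were 75.4, 255, 605 and 54.0 CPM against 87.8, 51.8, 88.8 and 53.3 CPM. In both, uninjured library 4 was by far the highest, the same library that was highest in gys1 and pygmb. Without it the log2 folds were -0.64 for irs1 and -0.86 for irs2b.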
